A study of Arabidopsis thaliana with 32 samples.

Results

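The 95 genes described here had expression values that climbed with the dose of each of 4 chemically unlike solutes, NaCl, sorbitol, polyethylene glycol 8000 (PEG) and ethylene glycol, in roots of Arabidopsis thaliana sampled 15 min after the solute was given. They were chosen by that behaviour. For each named gene a least-squares slope was taken over the doses of a solute, with the control at 0 mM, in log2 units per 100 mM, and the slopes of 2 runs of arrays were averaged. Genes were ranked by the smallest of their 4 slopes and the first 100 were kept. Of 8 genes that the rule leaves out by name, AT3G29000, AT2G22880, AT5G40000, STZ and CML37 were among the 100 (5 genes), and EXPA20, ZAT7 and CML23 were not. That left 95 members of the 10004 named genes whose mean log2 value was 3 or more. The arrays gave 28285 entries in all, 16554 named genes and 11731 probe sets without a single gene name. These 28285 entries are counted together as all genes below. Because the slopes against the control chose the members, the members' slopes and all their changes from the control are given as a description with no test. Calls on the members are reported for differences between solutes, the bending of the dose curves and differences between the runs.

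When the solution around a root becomes more concentrated, water leaves the cells and turgor, the pressure of a cell against its wall, drops. Sorbitol is taken up slowly and a polymer such as PEG hardly at all, NaCl adds sodium and chloride ions, and ethylene glycol passes through membranes, so that turgor can recover while the osmotic potential stays low. The earliest transcripts that plants make under wounding, cold, touch, osmotic shock or microbial elicitors are known to include calcium-binding proteins, protein kinases, ubiquitin ligases and VQ-motif proteins, which bind WRKY transcription factors. Many of them are known as general rapid stress genes that respond to most such treatments.

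The plants were Columbia-0 wild type, 16 days old and grown in liquid culture, and whole roots were collected. NaCl was given at 4 doses (25, 50, 75 or 100 mM), sorbitol at 3 (50, 100 or 150 mM), PEG at 4 (75, 100, 125 or 150 mM) and ethylene glycol at 4 (50, 100, 150 or 200 mM), and control roots went into the same solution without added solute. Each of the 16 groups had 2 arrays, 1 in a first run (sample titles 17 to 32) and 1 in a second run (titles 33 to 48), which made 32 arrays of log2 values between 0.2 and 12.45. Doses are nominal, and for a polymer as large as PEG 8000 the stated molar doses would be very concentrated solutions, so the PEG axis is used as labelled. A whole root holds many cell types, and more cells of a type and more RNA per cell cannot be told apart. The array medians lay between 4.11 and 4.24. Of 17 root and 14 leaf marker genes, 1 each could be found by name: the root hair expansin EXPA7 averaged 7.34 (6.57 to 8.08 over the arrays), and the leaf gene RCA, Rubisco activase, averaged 3.42 (2.81 to 4).

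Most members carry a locus name alone (87 of 95, or 91.6%, against 87.8% of the 10004 named genes), and 8 have a symbol: AR781, DLAH, PUB24, ZCF37, PUB54, PTI1-4, SUFE2 and cwINV6. Their mean log2 values ran from 3.01 to 8.94 with a median of 5.17. None of the 95 had a second probe set in the table or shared its values with another probe set. The 35 members on chromosome 1 were joined by 14 on chromosome 2, 14 on chromosome 3, 13 on chromosome 4 and 19 on chromosome 5.

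Seen as a set, the members left the control level by small steps that followed the dose. With NaCl the median change from the control over the 95 genes was 0.15 at 25 mM, 0.45 at 50 mM, 0.55 at 75 mM and 0.73 at 100 mM on the log2 scale. With sorbitol it was 0.23 at 50 mM, 0.41 at 100 mM and 0.73 at 150 mM. With PEG it was 0.39 at 75 mM, 0.49 at 100 mM, 0.48 at 125 mM and 0.65 at 150 mM, so the 2 middle PEG doses gave nearly the same value. With ethylene glycol it was 0.14 at 50 mM, 0.30 at 100 mM, 0.49 at 150 mM and 0.63 at 200 mM. The medians over the 10004 named genes stayed between -0.075 and 0.015 in all 15 treated groups. A change of 0.5 or more was reached by 74 members at 100 mM NaCl (3.03% of the 10004 genes), by 76 at 150 mM sorbitol (2.48%), by 67 at 150 mM PEG (3.08%) and by 80 at 200 mM ethylene glycol (1.91%). At the lowest doses the numbers were 7 with NaCl (1.33%), 14 with sorbitol (1.31%), 33 with PEG (1.48%) and 6 with ethylene glycol (0.76%). Between them lay 40 members at 50 mM and 53 at 75 mM NaCl (2.11% each), 31 at 100 mM sorbitol (1.53%), 43 at 100 mM and 44 at 125 mM PEG (1.83% and 2.31%), and 14 at 100 mM and 46 at 150 mM ethylene glycol (0.88% and 1.28%). These counts come from the contrast that chose the genes and describe the set only.

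**Figure D1:**
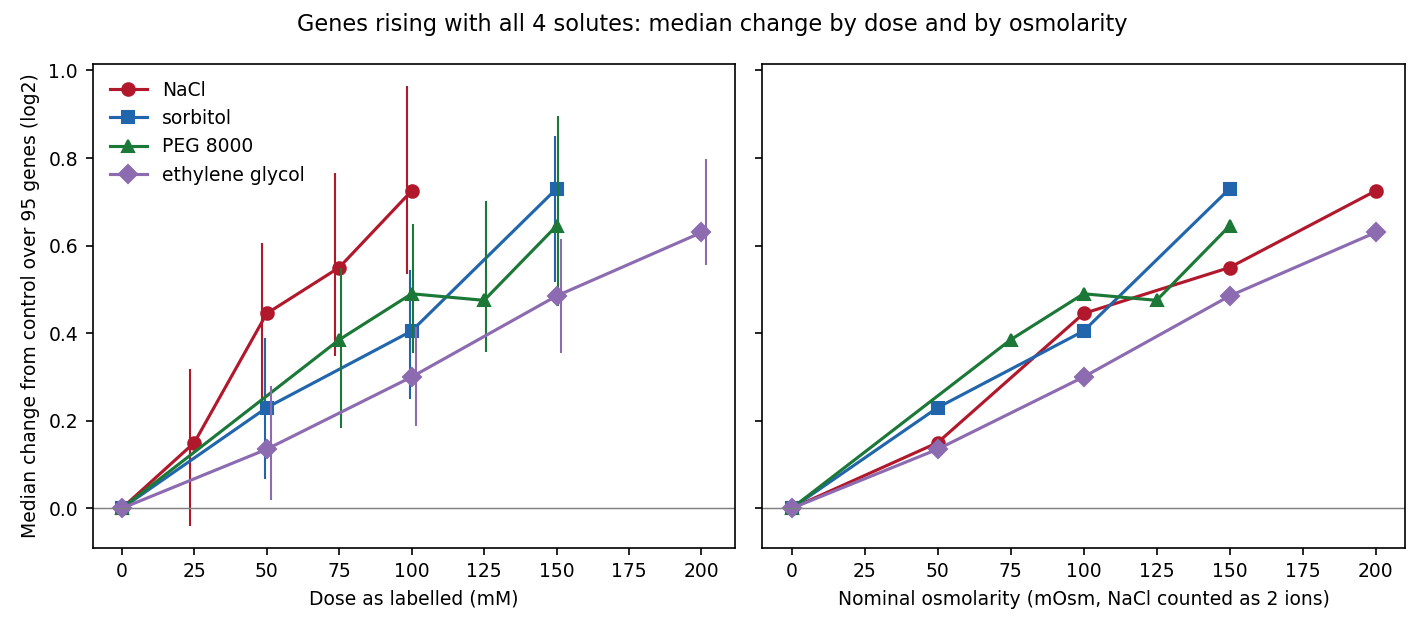
Median change from the control over the 95 genes (log2) by labelled dose in mM (left) and by nominal osmolarity in mOsm with NaCl counted as 2 ions (right). Points are medians over genes of the mean of both runs, and vertical lines on the left, shifted sideways for clarity, span the quartiles over genes. Per mM the NaCl line is the highest at 50, 75 and 100 mM, and per mOsm the NaCl points at 50 and 150 mOsm lie below sorbitol.

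The steepness differed between solutes. Slopes ran from 0.23 to 1.92 log2 per 100 mM with NaCl (median 0.71), from 0.22 to 1.44 with sorbitol (0.47), from 0.22 to 1.38 with PEG (0.41) and from 0.23 to 0.65 with ethylene glycol (0.32). Over the 10004 named genes the medians were -0.026 with NaCl, -0.022 with sorbitol, -0.048 with PEG and -0.002 with ethylene glycol. NaCl gave the steepest of the 4 slopes in 68 members, sorbitol in 13, PEG in 12 and ethylene glycol in 2 (AT1G67760 and AT3G50200). Ethylene glycol gave the least steep slope in 62 members, PEG in 20, sorbitol in 10 and NaCl in 3 (AT1G67760, AT1G56345 and AT2G22730). Counting the 2 ions of NaCl changes this order. Per mOsm NaCl was the steepest in 15 members, sorbitol in 41, PEG in 34 and ethylene glycol in 5. The median NaCl slope became 0.36 per 100 mOsm. The labelled PEG dose in mM was taken as mOsm here, so the place of PEG rests on that nominal unit. All 4 slopes share the same control arrays, and the NaCl slope, with doses up to 100 mM, has a wider error than the ethylene glycol slope with doses up to 200 mM (SE 0.21 against 0.11 for AR781).

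**Figure D2:**
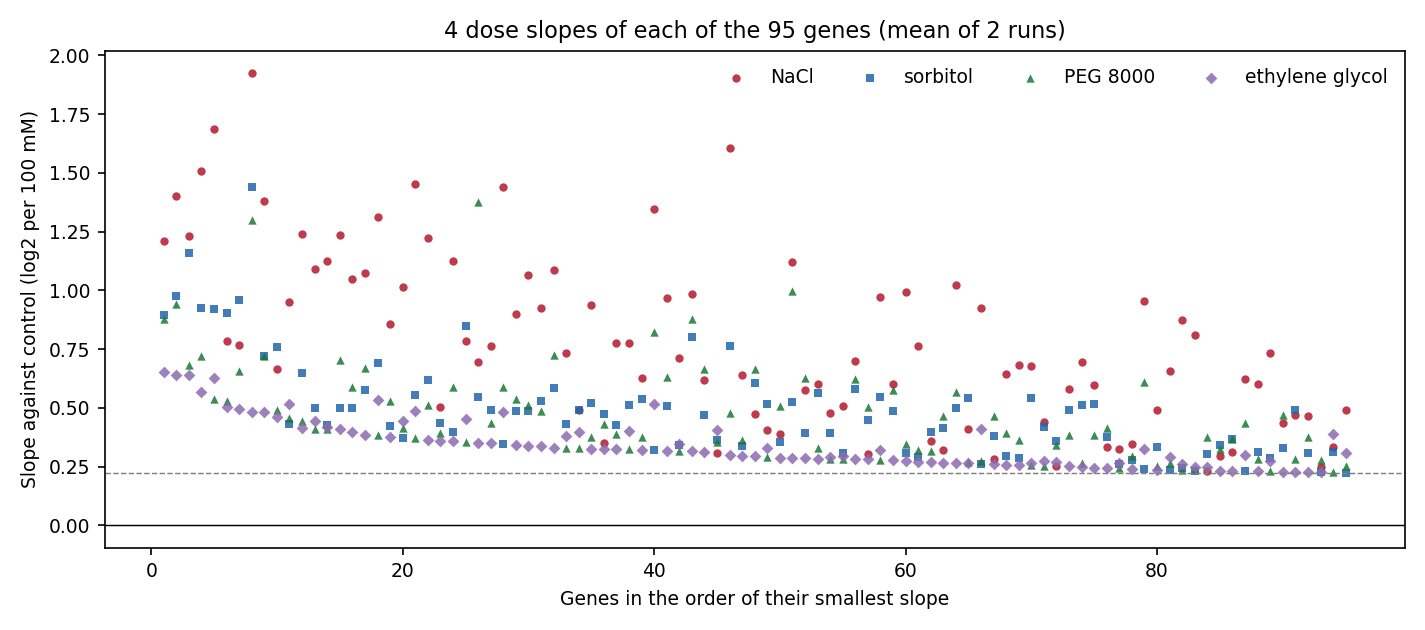
The 4 dose slopes of each of the 95 genes (log2 per 100 mM, mean of 2 runs), in the order of the smallest slope, with 1 symbol per solute. The dashed line marks the smallest slope of the last member, 0.224, and the red NaCl points form the upper edge for most genes.

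The highest-ranked member was AR781, whose smallest slope was 0.652. In control roots AR781 had 5.99 and 6.9 (second run and first run, log2, an order kept below). Of the NaCl doses, 25 mM gave 6.26 and 6.97, 50 mM gave 7.04 and 7.08, 75 mM gave 7.37 and 7.46 and 100 mM gave 7.24 and 7.88. The second-run value passed the first-run control from 50 mM on. Of the sorbitol doses, 50 mM gave 6.45 and 7.24, 100 mM gave 6.91 and 7.38 and 150 mM gave 7.72 and 7.95, and of the PEG doses, 75 mM gave 6.81 and 7.61, 100 mM gave 7.15 and 7.56, 125 mM gave 7.47 and 7.56 and 150 mM gave 7.56 and 8.04. Of the ethylene glycol doses, 50 mM gave 6.22 and 6.91, 100 mM gave 6.37 and 7.95, 150 mM gave 6.97 and 7.14 and 200 mM gave 7.31 and 8.35. In each run the array at the highest dose of every solute lay above the control array of that run, and the first-run ethylene glycol arrays zigzagged.

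AT4G36500, the second in rank, had slopes of 1.40, 0.97, 0.94 and 0.64 with NaCl, sorbitol, PEG and ethylene glycol, in that order, which is kept for all slopes below. AT4G36500 had 2.67 and 4.64 in control roots, 4.25 and 5.6 at 100 mM NaCl, 4.43 and 5.96 at 150 mM sorbitol, 4.42 and 6.07 at 150 mM PEG and 4.22 and 5.65 at 200 mM ethylene glycol. Its second-run array lay below its first-run array in every group, and its 8 slopes were above 0 in both runs. AT1G35210 had slopes of 1.23, 1.16, 0.68 and 0.64, with 2.79 and 2.76 in control roots and up to 4.27 and 4.79 at 150 mM sorbitol. The next were AT1G07135, a glycine-rich protein (1.51, 0.93, 0.72 and 0.57), and AT2G24600, an ankyrin-repeat protein (1.69, 0.92, 0.54 and 0.62). DLAH, a lipase related to DAD1 of jasmonate synthesis, had 0.79, 0.91, 0.53 and 0.51. Then came AT1G72900, a TIR-domain protein (0.77, 0.96, 0.66 and 0.49), and AT1G59865 (1.92, 1.44, 1.30 and 0.48), which had the steepest NaCl slope and the steepest sorbitol slope of the set. The list of 12 ended with the lectin-like protein AT5G18470 (1.38, 0.72, 0.72 and 0.48), AT2G39650 (0.67, 0.76, 0.49 and 0.46), the calmodulin-binding protein AT5G57010 (0.95, 0.43, 0.46 and 0.52) and the TIR-domain protein AT5G41740 (1.24, 0.65, 0.45 and 0.42).

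At the other end, the last 3 members were AT2G34380, a seipin of lipid droplet formation, AT3G50200 and AT2G19260, with smallest slopes of 0.225, 0.2247 and 0.224. The first 3 genes outside were AT1G32920, AT1G24420 and AT3G47940, at 0.223, 0.223 and 0.222. The members at the edge and the genes just outside thus had nearly the same values. All 8 slopes, 4 solutes in each of 2 runs, were above 0 in 87 members. In the other 8 members, of which AT1G67760 with NaCl in the first run (-0.24) lay the lowest, at least 1 of the 8 slopes was at or below 0. With the control left out, the slope over the treated doses alone was above 0 for all 4 solutes in 75 of the 95 members (7.4% of the 10004 named genes). It was above 0 in 86 members with NaCl, 89 with sorbitol, 82 with PEG and 94 with ethylene glycol. Over the 10004 named genes the shares were 46.7%, 50.7%, 39.6% and 47%, in that order of solutes. The rule's slopes were fitted on these same treated arrays, so the counts describe the set and are no test. The control arrays carry weight in the choice: without the first-run control 61 of the 95 genes stayed among the first 100, and without the second-run control 67 did.

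As background, 48 of the members belong to protein classes that are generally known in Arabidopsis. The classes were assigned after the values were seen and come from general knowledge, since the annotation tables used for names do not give them, and the other 47 members are left unclassed. The largest class was 9 proteins with a TIR domain, the signalling domain of many plant immune receptors: AT1G72900, AT1G72920, AT1G72950, AT5G41740, AT5G41750, AT4G19520, AT5G51630, AT3G51560 and AT2G20142. Their median slopes were 0.49 with NaCl, 0.52 with sorbitol, 0.32 with PEG and 0.31 with ethylene glycol, and 4 of them were steepest with NaCl, 4 with sorbitol and 1 with PEG. The 4 VQ-motif proteins were AT1G17147, AT1G21326, AT3G56880 and AT4G20000. Per mM all 4 were steepest with NaCl, as were 68 of the 95 members, against 15 of the 95 per mOsm. The NaCl slopes of these 4 lay between 0.99 and 1.22 and their ethylene glycol slopes between 0.28 and 0.36. The 7 kinases comprised the receptor-like cytoplasmic kinase AT1G72540, the PTI1-like kinase PTI1-4, the leucine-rich repeat kinase AT1G53440, and AT1G66880, AT1G11050, AT4G18250 and AT1G70740. Kinase slopes with NaCl spanned 0.47 to 0.78, and 2 kinases, AT1G72540 (0.70, 0.55, 1.38 and 0.35) and AT4G18250 (0.47, 0.60, 0.66 and 0.30), were steepest with PEG.

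Calcium signalling was represented by the EF-hand protein AT4G27280, which binds calcium (0.63, 0.54, 0.38 and 0.32), and by the calmodulin-binding proteins AT5G57010 and AT2G26190 (0.94, 0.52, 0.38 and 0.33). All 3 were steepest with NaCl per mM, as were 68 of the 95 members. Among 6 ubiquitin ligases, the U-box proteins were PUB24 (1.08, 0.57, 0.67 and 0.38), PUB54 (0.49, 0.49, 0.33 and 0.40) and AT4G36550 (0.66, 0.23, 0.26 and 0.29), and the RING proteins were AT5G66070, AT4G26400 and AT1G26800. U-box ligases attach ubiquitin to other proteins, and PUB24 is known as a brake on immune signalling. The 2 ankyrin-repeat proteins AT2G24600 and AT1G14480 had NaCl slopes of 1.69 and 1.12. The 48 classed members held 2 transcription factors. AT5G59450 belongs to the GRAS family (0.47, 0.49, 0.28 and 0.23) and AT5G46710 to the PLATZ zinc-finger family (1.02, 0.50, 0.57 and 0.27). The zinc-finger repressor STZ and the calmodulin-like gene CML37 were within the first 100 and are left out by name.

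Other members belong to metabolism and transport. The transport class held AT1G59740 of the nitrate and peptide transporter family, the MATE exporter AT1G61890, AT2G22730 and AT4G18205, with median slopes of 0.66, 0.31, 0.30 and 0.25. The 5 enzymes were the aspartyl protease AT3G59080 (1.05, 0.50, 0.59 and 0.40), the cell wall invertase homolog cwINV6 (0.48, 0.39, 0.28 and 0.29), SUFE2 of iron-sulfur cluster assembly (0.39, 0.35, 0.51 and 0.29), the germin-like protein AT5G38910 and the glycosyltransferase AT2G28080. Besides DLAH and AT2G34380, lipid proteins were AT4G24160, an acyltransferase and hydrolase, and the GDSL lipase AT1G28600.

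Some members are near each other in the genome. Within 5 genes of each other on the RefSeq map (TAIR10.1) lay AT5G41740 and AT5G41750, which are next to each other, AT5G48530 and AT5G48540, likewise adjacent, and AT1G50740 and AT1G50750, which are 2 steps apart. The TIR genes AT1G72900, AT1G72920 and AT1G72950 form another group on chromosome 1, with steps of 2 and 3 genes. Both genes of each pair were chosen for rising with the same doses, so a correlation between them is not independent of that choice. No value for distant members is given beside it. As a description over the 32 arrays, which share runs and doses, the correlation was 0.895 for AT5G48530 with AT5G48540, 0.796 for AT5G41740 with AT5G41750, 0.805 for AT1G72900 with AT1G72920, 0.74 for AT1G72920 with AT1G72950 and 0.733 for AT1G50740 with AT1G50750.

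Solutes were compared directly at the doses they share, without the control arrays, in limma with the run as a replicate block and adjustment over all 28285 genes of a contrast. The rule set a floor under each slope but no order among solutes. It used these same treated arrays, so a difference between solutes is not independent of the choice. The shares over all genes come from genes that were not so chosen. Member counts beside these shares therefore describe the set and do not measure an excess. At 50 and 100 mM, NaCl gave higher values than sorbitol in 13 of the 95 members and lower values in 0, while 0.23% of all genes were called higher and 0.0141% lower. The median difference over the members was 0.26 log2, with 78 members positive and 17 negative, against -0.0075 over all genes. NaCl against ethylene glycol at the same doses gave 17 higher and 0 lower (background 0.339% higher and 0.106% lower), with a median of 0.34 and 89 members positive. NaCl against PEG at 75 and 100 mM gave 9 higher (0.272%) and 1 lower (0.053%), with a median of 0.22. The calls rest on the replicate block: in the fit without it 0 members passed in any contrast between solutes, although 15 members with sorbitol, 19 with ethylene glycol and 15 with PEG then had an unadjusted p under 0.05 in these 3 contrasts. When 1 of the 8 arrays of a contrast was left out, NaCl against sorbitol had between 5 and 10 called members, the lowest without the second-run NaCl 50, NaCl 100 or sorbitol 100 mM array or the first-run sorbitol 100 mM array. NaCl against ethylene glycol had 9 to 19, the lowest without the second-run NaCl 100 mM array, and NaCl against PEG had 4 to 13, the lowest without the second-run NaCl 75 mM array.

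**Figure D3:**
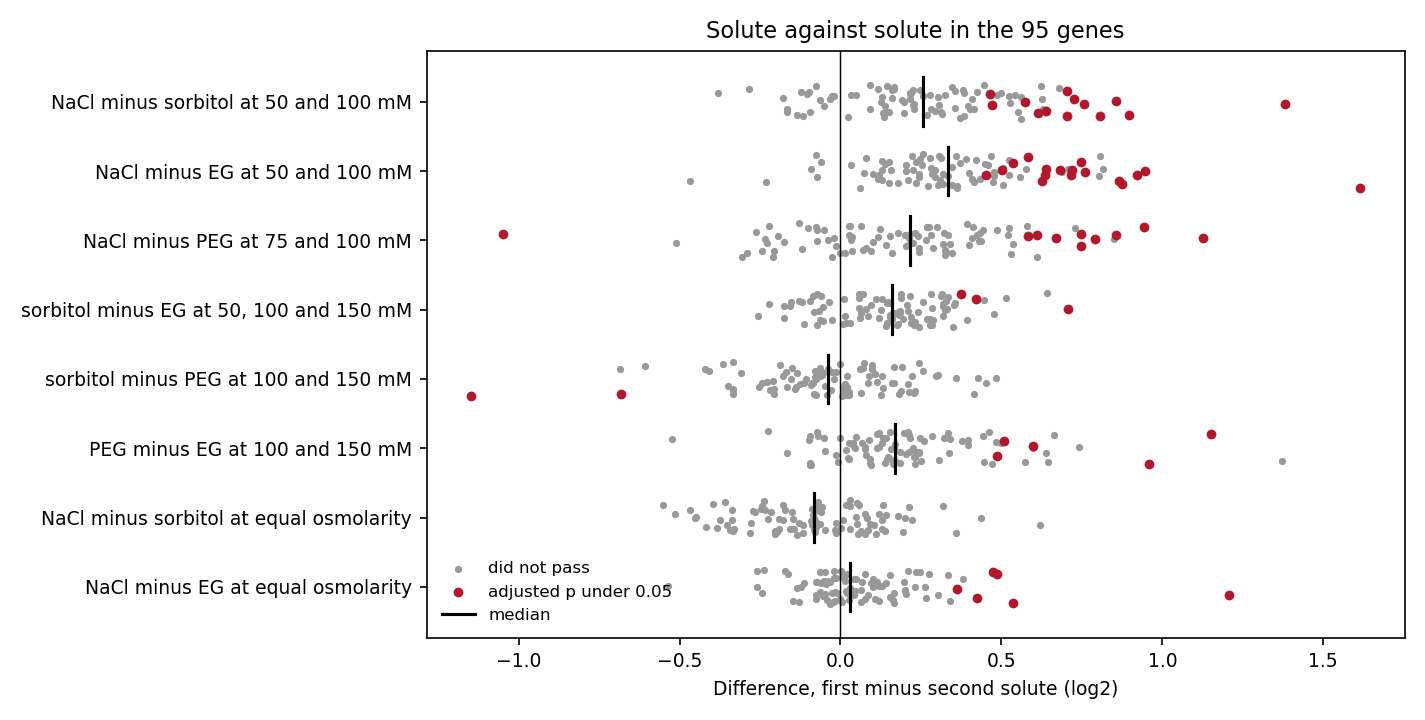
Differences between 2 solutes in the 95 genes (log2, first minus second), for 6 contrasts at shared doses and 2 at equal nominal osmolarity. Each point is a gene, red where the adjusted p was under 0.05, and the black bar is the median, which lies at 0.26 for NaCl minus sorbitol at shared doses and at -0.082 at equal osmolarity.

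ZCF37 separated NaCl from sorbitol with the smallest p. At 50 and 100 mM NaCl it had 5.92 and 6.83 and then 6.15 and 7.28, against 5.04 and 6.41 and then 5.3 and 6.61 with sorbitol. In each run both NaCl arrays lay above both sorbitol arrays. The difference was 0.70 (SE 0.095, limma adjusted p = 0.000462). With ethylene glycol ZCF37 had 5.26 and 6.14 and then 5.39 and 6.51, again below NaCl in both runs, with a difference of 0.72 (adjusted p = 0.000177).

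For AT1G50740, NaCl at 50 mM gave 8.22 and 8.26 and 100 mM gave 8.73 and 8.99, against 7.67 and 7.92 and then 7.83 and 8.23 with sorbitol. Neither run showed overlap, and the difference was 0.64 (SE 0.089, adjusted p = 0.000559). The VQ-motif gene AT3G56880 averaged 7.61 with NaCl and 6.91 with sorbitol, a difference of 0.70 (adjusted p = 0.00369). A second VQ-motif gene, AT1G21326, averaged 6.95 with NaCl and 6.00 with ethylene glycol, with a difference of 0.95 (adjusted p = 0.00094).

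The ankyrin gene AT2G24600 was called in all 3 NaCl contrasts and stood farthest from PEG. Of the NaCl doses, 75 mM gave 5.94 and 5.84 and 100 mM gave 6.24 and 6.59, against 4.97 and 5.03 and then 4.97 and 5.14 with PEG. The control arrays had 4.61 and 5.2. At these doses the PEG arrays lay slightly below the control in the first run and above it in the second. The NaCl arrays lay above the control and above the PEG arrays in both runs. The difference was 1.12 (SE 0.13, adjusted p = 9.2e-06), against 0.86 from ethylene glycol and 0.72 from sorbitol. The call against sorbitol was lost without the first-run sorbitol 50 mM array (adjusted p = 0.0601) or sorbitol 100 mM array (0.0694).

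AT3G02840, an armadillo-repeat protein, averaged 5.75 with NaCl and 4.81 with PEG at 75 and 100 mM (difference 0.94, adjusted p = 0.00235). In both runs its NaCl arrays lay above its PEG arrays. AT1G07135 differed by 0.86 (adjusted p = 0.00172) in the same contrast, with overlap in the first run. AT1G21326 differed by 0.79 (adjusted p = 0.00574), a call lost without the second-run NaCl 75 mM array (adjusted p = 0.065).

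**Figure D4:**
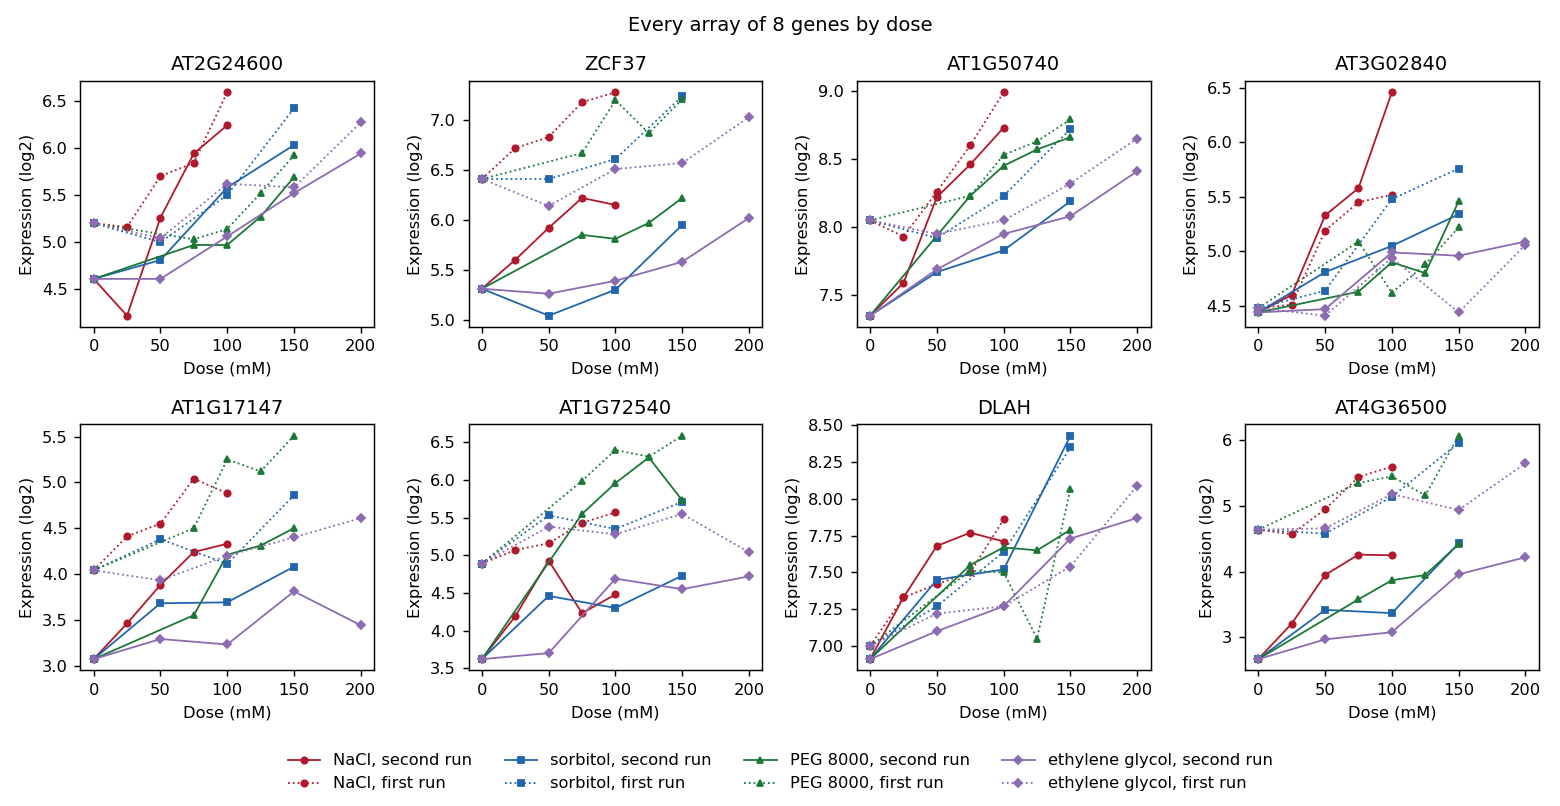
Log2 expression of 8 genes on every array against the dose in mM, with solid lines for the second run and dotted lines for the first run, 1 colour and symbol per solute, and the control of each run at 0 mM. AT2G24600 shows NaCl above PEG in both runs, AT1G72540 shows PEG above the other solutes in both runs, and AT4G36500 shows the second run wholly below the first.

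The kinase AT1G72540 ran the other way and was higher with PEG than with each of the 3 other solutes. Of the PEG doses, 75 mM gave 5.55 and 5.99, 100 mM gave 5.96 and 6.4 and 150 mM gave 5.73 and 6.59. Of the NaCl doses, 75 mM gave 4.23 and 5.43 and 100 mM gave 4.48 and 5.57. Of the sorbitol doses, 100 mM gave 4.3 and 5.35 and 150 mM gave 4.73 and 5.71, and of the ethylene glycol doses, 100 mM gave 4.69 and 5.28 and 150 mM gave 4.55 and 5.55. Within each run the PEG arrays did not overlap any of these. The differences were -1.05 for NaCl minus PEG (adjusted p = 0.00467), -1.15 for sorbitol minus PEG (adjusted p = 0.00671) and 1.15 for PEG minus ethylene glycol (adjusted p = 0.00288). Leaving out the second-run NaCl 75, NaCl 100 or PEG 75 mM array moved the first of these to an adjusted p of 0.0502, 0.051 or 0.0518, and leaving out the second-run sorbitol 100 mM array moved the second to 0.0543.

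Between sorbitol, PEG and ethylene glycol fewer members were called. Sorbitol was higher than PEG in 0 members (0.0247% of all genes) and lower in 2 (0.053%), AT1G72540 and the VQ-motif gene AT1G17147, and the median over the members was -0.038. PEG was higher than ethylene glycol in 5 members and lower in 0 (background 0.103% higher and 0.0283% lower), with a median of 0.17. Those 5 were AT1G17147, ZCF37, AT1G72540, AT1G50740 and AT2G16900, a phospholipase-like protein. Sorbitol was higher than ethylene glycol in 3 members and lower in 0 (background 0.141% higher and 0.173% lower), with a median of 0.16. The fit without the block called 0 members in each of these contrasts. Leaving out 1 array gave 3 to 8 members for PEG against ethylene glycol, with 3 without the second-run PEG 100 mM array or the ethylene glycol 150 mM array of either run, and 1 or 2 for sorbitol against PEG.

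For AT1G17147, PEG at 100 mM gave 4.21 and 5.25 and 150 mM gave 4.5 and 5.51, against 3.23 and 4.2 and then 3.81 and 4.4 with ethylene glycol. Sorbitol at those doses gave 3.69 and 4.11 and then 4.08 and 4.86. In each run PEG lay above both. The difference from ethylene glycol was 0.96 (SE 0.13, adjusted p = 0.000188), and sorbitol minus PEG was -0.68 (adjusted p = 0.0209). The call between sorbitol and PEG was lost without any 1 of 5 of the 8 arrays, both sorbitol and both PEG arrays of the first run and the second-run sorbitol 150 mM array (adjusted p from 0.0588 to 0.158). ZCF37 averaged 6.61 with PEG and 6.01 with ethylene glycol (0.60, adjusted p = 0.00263). AT1G50740 averaged 8.61 and 8.10 (0.51, adjusted p = 0.00874). That call ended when 1 of 5 of the 8 arrays was left out (adjusted p from 0.0579 to 0.0723).

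The lipase gene DLAH averaged 7.78 with sorbitol and 7.36 with ethylene glycol over 50, 100 and 150 mM. Of the sorbitol doses, 50 mM gave 7.45 and 7.27, 100 mM gave 7.52 and 7.64 and 150 mM gave 8.43 and 8.35. Of the ethylene glycol doses, 50 mM gave 7.1 and 7.22, 100 mM gave 7.27 and 7.27 and 150 mM gave 7.73 and 7.54. At each dose in each run the sorbitol array was the higher one, and over all doses the solutes overlapped. The difference was 0.42 (SE 0.083, adjusted p = 0.0235). The kinase AT4G18250 differed by 0.38 (adjusted p = 0.0318) and AT1G53970 by 0.71 (adjusted p = 0.0325). In AT1G53970 the sorbitol arrays of each run lay above all ethylene glycol arrays of that run. Leaving out 1 of the 12 arrays ended the DLAH call in 7 cases, the AT4G18250 call in 11 and the AT1G53970 call in 10, and between 0 and 2 members were then called, 0 of them without the first-run sorbitol 150 mM array, for example.

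At equal nominal osmolarity the picture changed for sorbitol. NaCl at 25, 50 and 75 mM against sorbitol at 50, 100 and 150 mM gave 0 called members and 0 called genes in limma (0% of all genes), while 28 members and 1736 genes had an unadjusted p under 0.05. The fit with no block also called 0 there, with 5 members at that p. The median over the members was -0.082, with 34 members positive and 61 negative. The smallest p belonged to the TIR gene AT2G20142, which averaged 6.14 with NaCl and 6.69 with sorbitol (-0.55, SE 0.098, adjusted p = 0.0528). At every matched osmolarity in each run its NaCl array was the lower one. Leaving out the second-run NaCl 50 or NaCl 75 mM array brought AT2G20142 past the threshold (adjusted p = 0.0153 and 0.0303). Whether the difference at equal dose and that at equal osmolarity differ from each other was not tested.

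NaCl at all 4 doses against ethylene glycol at 50, 100, 150 and 200 mM gave 6 members higher and 0 lower (0.255% and 0.283% of all genes), with a median of 0.029. The 6 were ZCF37, AT1G59865, AT1G17147, AT3G02840, AT1G21326 and PUB24, and the fit without the block called 0. AT1G59865 had the largest difference. Of its NaCl doses, 25 mM gave 4.59 and 5.76, 50 mM gave 5.42 and 5.7, 75 mM gave 5.83 and 5.9 and 100 mM gave 5.62 and 6.2. Of its ethylene glycol doses, 50 mM gave 3.2 and 5.17, 100 mM gave 2.89 and 5.22, 150 mM gave 3.78 and 5.37 and 200 mM gave 3.94 and 5.79. In the second run every NaCl array lay above every ethylene glycol array, and in the first run the ranges overlapped. The difference was 1.21 (SE 0.22, adjusted p = 0.00674). ZCF37 differed by 0.42 (adjusted p = 0.00198), AT1G17147 by 0.48 (adjusted p = 0.0089) and AT3G02840 by 0.54 (adjusted p = 0.0233). Leaving out 1 of the 16 arrays left between 3 and 6 members called, with 3 without the ethylene glycol 50 mM array of either run, the first-run 150 mM array or the second-run 100 or 200 mM array, and AT3G02840 was lost in 7 of the 16 cases.

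Whether the dose curves bend was asked with the quadratic coefficient over the treated doses alone, which holds no linear part and no control array and so was not used by the rule. In limma 0 members were called in any solute, as were 0 of all genes (0%). At an unadjusted p under 0.05 there were 8 members with NaCl, 10 with sorbitol, 5 with PEG and 0 with ethylene glycol, against 1338, 1283, 1320 and 640 of the 28285 genes, and the fit without the block also called 0. The smallest p values were those of AT4G18250 with NaCl (-2.90 log2 per (100 mM) squared, adjusted p = 0.901), AT1G72900 with sorbitol (3.51, 0.999), DLAH with PEG (2.1, 0.998) and AT3G09032 with ethylene glycol (0.42, 0.999). With 3 or 4 doses and 2 arrays each, a bend was not detectable at this precision, which does not show that the curves are straight.

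Many members differed between the runs. Averaged over all 16 groups, 70 of the 95 were lower in the second run than in the first and 6 were higher, at an adjusted p under 0.05. Among all genes 28.2% were lower and 34.6% higher, and among the 10004 named genes with a mean of 3 or more 41.8% were lower and 32.7% higher. The median second-minus-first difference was -0.42 over the members, with 80 of 95 below 0, against 0.064 over all genes and -0.047 over those 10004. In 17 members every second-run array lay below every first-run array (7.11% of all genes), and in 0 members was it the other way round (5.43%). These 17 include PUB54, AT3G55790 and AT4G20000, which reached the minimum mean of the rule through the first run alone. The rule averaged the runs, but its minimum mean of 3 used the level, and 7 members reached it through 1 run alone. PUB54, AT3G55790, AT4G20000 and AT1G50750 had a mean under 3 in the second run, and AT4G23000, AT1G67760 and AT3G24780 had one under 3 in the first, so the run difference of these 7 genes is partly set by the minimum. Of the 88 members with a mean of 3 or more in each run, 66 were lower and 3 higher in the second run (41.9% and 32.2% of the 9669 named genes of that kind), with a median of -0.44 against -0.049. What the runs are is known only from the title numbers, and nothing in the labels says what else differed between them.

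**Figure D5:**
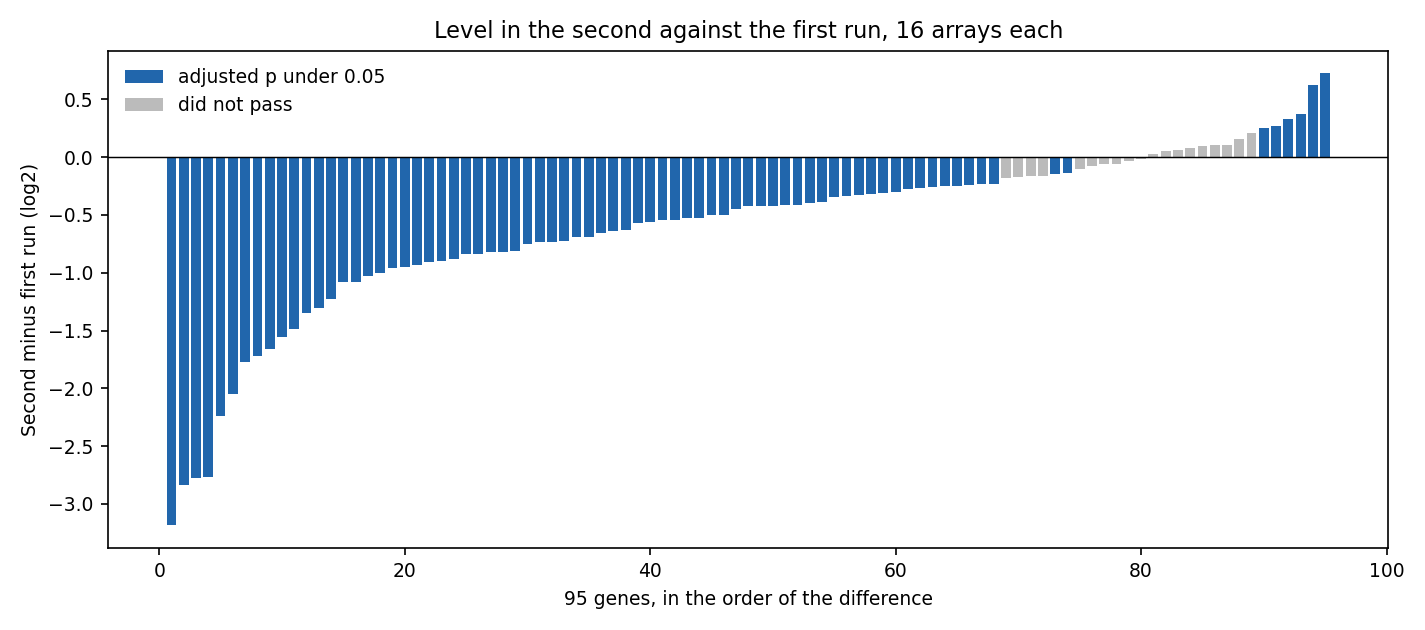
Difference in log2 level between the second and the first run for each of the 95 genes, averaged over 16 groups and sorted, with blue bars where the adjusted p was under 0.05 and grey bars where it was not. Of the blue bars 70 point down and 6 point up, and the lowest reaches -3.18.

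The U-box gene PUB54, 1 of the 4 members that reached the minimum mean only through the first run, had the largest difference. Its lowest, median and highest values over 16 arrays were 2.23, 2.61 and 3.29 in the second run, against 5.24, 5.925 and 6.46 in the first. The runs did not overlap, and the difference was -3.18. PUB54 slopes were nevertheless above 0 with all solutes in both runs, from 0.17 to 0.59 in the second run and from 0.31 to 0.80 in the first. AT1G53625 had 3.26, 3.595 and 4.07 in the second run, against 5.86, 6.43 and 6.97 in the first (-2.84, SE 0.096, limma adjusted p = 3.69e-19). AT3G55790, likewise kept only through its first-run level, differed by -2.78, and AT5G28610 differed by -1.72. None of these 4 genes overlapped between the runs. In both AT1G53625 and AT3G55790 the ethylene glycol slope of the second run was not above 0 (-0.068 and -0.016).

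The class of TIR proteins had 8 of 9 members lower in the second run (median -0.66), the VQ-motif proteins 4 of 4 (-0.66), the kinases 5 of 7 with 1 higher, and the ubiquitin ligases 5 of 6 with 1 higher. These class counts stand beside the 70 of 95 for all members and the 41.8% of the 10004 named genes, and no class was tested against the others. They include the VQ-motif gene AT4G20000 and the U-box gene PUB54, which reached the minimum mean only through the first run. The run difference of both genes is partly set by that minimum. The 6 members higher in the second run were AT4G23000 (0.73), AT2G22730 (0.63, adjusted p = 2.68e-06), the U-box gene AT4G36550 (0.33), the kinase AT1G70740 (0.27), AT1G67760 (0.38) and AT3G24780 (0.26), and all 6 overlapped between the runs. Of these, AT4G23000, AT1G67760 and AT3G24780 reached the minimum mean only through the second run. DLAH had a difference of 0.05 that did not pass (adjusted p = 0.393). Leaving out any 1 array gave between 75 and 78 members called, and the treated arrays alone gave 76.

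The slopes themselves could also be compared between the runs. Median slopes over the members were 0.86 in the second run and 0.62 in the first with NaCl, 0.55 and 0.41 with sorbitol, 0.48 and 0.38 with PEG, and 0.36 and 0.29 with ethylene glycol. The second-minus-first difference of slope was above 0 in 73 members with NaCl, 55 with sorbitol, 47 with PEG and 51 with ethylene glycol, in a fit that weights the groups differently from the rule. Over all genes it was above 0 in 47.6%, 48.4%, 46.3% and 48.5%, in that order of solutes. In limma 0 members passed in any of the 4 solutes (background 0.00354% with NaCl, 0% with sorbitol, 0.0318% with PEG and 0.0849% with ethylene glycol). At an unadjusted p under 0.05 there were 2167, 1785, 2670 and 1283 of the 28285 genes in the order of the solutes above. The members had 20, 6, 10 and 7 at that p. The smallest p with NaCl was that of AT1G59865, whose NaCl slope was 2.67 in the second run and 1.18 in the first. Its fitted difference was 1.95 (SE 0.40, adjusted p = 0.11), and it passed without the NaCl 100 mM array of the second run (2.96, adjusted p = 0.0272) or of the first run (2.96, 0.0274). With the other solutes the smallest p values were those of AT1G78830 with sorbitol (0.72, adjusted p = 0.729), AT1G19020 with PEG (0.45, 0.297) and AT1G26720 with ethylene glycol (0.62, 0.798).

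For orientation, the slope against the control over all genes called 252 genes higher with NaCl (0.891% of 28285), 97 with sorbitol (0.343%), 150 with PEG (0.53%) and 60 with ethylene glycol (0.212%), and 35 with all 4 (0.124%). No call on these slopes is read in the members, since the same slopes chose them.

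Of 15 lists of known rapid stress genes and related families, 10 had a gene that could be found by name, 62 genes in all. PUB24 and PUB54 are the 2 that belong to the 95. Of the other 60 genes, 3 were called higher and 0 lower along the NaCl doses, 2 higher and 0 lower with sorbitol, 2 higher and 2 lower with PEG (0.53% and 0.481% of all genes), and 1 higher and 0 lower with ethylene glycol, and the fit without the block called 0. STZ, a C2H2 zinc-finger repressor, and CML37, a calmodulin-like gene, were within the first 100 by these same slopes and are left out of the rule by name, so their calls, 1 of the 3 with NaCl, both with sorbitol and the 1 with ethylene glycol, are no test. STZ had slopes of 0.86 with NaCl, 0.47 with sorbitol and 0.33 with ethylene glycol, and CML37 had 0.60 with sorbitol, in log2 per 100 mM. The calmodulin-like gene CML23, also left out by name but outside the first 100, rose with NaCl by 1.40 (SE 0.23, adjusted p = 0.00103). The U-box ligase PUB23 rose with NaCl by 0.65 (SE 0.12, adjusted p = 0.00426) and with PEG by 0.43 (SE 0.09, adjusted p = 0.0114).

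With PEG, WRKY41 rose by 0.65 (SE 0.16, adjusted p = 0.0428). The xyloglucan-modifying gene XTH26 and the glutathione transferase GSTU26 fell with PEG, with slopes of -0.49 (SE 0.12, adjusted p = 0.0486) and -0.52 (SE 0.10, adjusted p = 0.00644). By list, the calls with NaCl were 1 of 7 calmodulins and touch genes, 1 of 2 C2H2 genes (STZ) and 1 of the 8 U-box ligases outside the set. The 6 dehydration and abscisic acid genes, 3 ERF and DREB genes, 2 MAP kinase cascade genes and 1 NAC gene had 0 calls with any solute. The median NaCl slope was 0.15 for the dehydration genes, 0.26 for 7 WRKY genes, -0.073 for 10 XTH genes and 0 for 14 glutathione transferases, against -0.008 over all genes.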

How the data were processed

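Biotin-labelled cDNA made from total RNA of whole roots was run on 32 Affymetrix arrays with 1 colour each, per the labels' protocols. The deposited values are normalised log2 expression per probe set, made by the authors with GCRMA, Transcriptome Analysis Console and Affymetrix Expression Console, per the submitters' processing notes. The log base was read from the range of the values, while tool versions and a genome build are not given. Of 28477 probe sets, 16746 list 1 gene, 758 several and 10973 none in the array annotation, and 16601 matched RefSeq (TAIR10.1, names and gene order only). The probe set with the highest mean was kept per gene (192 set aside), which left 16554 named genes and 11731 unnamed probe sets. All columns belonged to a sample (0 were set aside).

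Members, gene lists and tests were chosen with earlier results of these data known. All 32 arrays entered limma 3.58.1 (R 4.3.3), with 1 mean per group, moderated variances with a mean-variance trend, two-sided tests and Benjamini-Hochberg adjustment over 28285 genes at 0.05, which was tested on simulated data. The p-values are not adjusted over the contrasts. The run was a replicate block: the pairing comes from the title numbers, and in all 120 pairs of groups the run differences correlated across genes (0.501 to 0.767, median 0.672). The median residual SD was 0.19 with the block (15 degrees of freedom) and 0.272 without it (16). Separate plants for the 2 arrays of a group are not stated in the labels, so a p-value measures only how these samples spread, which may be technical, and the number of arrays limits the precision.

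Genes were named by a rule: the 12 highest in rank, 3 members on the inner and 3 genes on the outer side of the edge, up to 4 called members per direction and contrast (the smallest p where none was called), up to 3 genes per list, and members by class. Alternatives were other normalisations, no block, no trend, a filter on low values, the compared groups alone and each array left out. A planned motif search in promoters and a count of gene descriptions were not run. No promoter sequences were available, and 7 of 95 members had a description.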

Additional observations from a re-analysis of the deposited data

How the results depend on the processing

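The replicate block decided most calls. Over all genes, calls on the slopes in either direction numbered 309 with NaCl, 135 with sorbitol, 286 with PEG and 61 with ethylene glycol. With no replicate block they numbered 8, 3, 4 and 0. Without the block the list genes outside the set had 0 calls with each solute and the members 0 in 7 contrasts between solutes, while the contrast of NaCl with sorbitol at equal osmolarity had 0 in both fits. Of the 95 genes, 52 stayed among the first 100 with the first run alone, 60 with the second run alone and 52 with the treated doses alone, and 61 to 95 with 1 array left out. Moderation without the trend gave 5 members for NaCl against sorbitol, 11 for NaCl against ethylene glycol, 0 for sorbitol against ethylene glycol, 3 for PEG against ethylene glycol, 3 for NaCl against ethylene glycol at equal osmolarity, and 1 list gene with PEG. PEG against ethylene glycol had 11 members after quantile normalisation, 10 after centring each array on its median and 8 with genes of mean 3 or more only, and NaCl against sorbitol at equal osmolarity had 1 in each of these 3. With only the groups compared, the ethylene glycol slope called 43 members, sorbitol against ethylene glycol 8 and sorbitol against PEG 1. With 1 array left out, members called ranged from 5 to 10 (NaCl against sorbitol), 9 to 19 (NaCl against ethylene glycol), 4 to 13 (NaCl against PEG), 0 to 2 (sorbitol against ethylene glycol), 1 to 2 (sorbitol against PEG), 3 to 8 (PEG against ethylene glycol), 0 to 1 and 3 to 6 (NaCl against sorbitol and against ethylene glycol at equal osmolarity), 75 to 78 (run level), 0 to 1 (run difference of the NaCl slope), and on slopes 22 to 54 with NaCl, 7 to 32 with sorbitol, 7 to 36 with PEG and 3 to 23 with ethylene glycol, each lowest without the second-run control. The run level had 69 called among members with a mean of 3 or more in each run, an alternative chosen after seeing the data. List genes outside the set, with 1 array left out, had 2 to 4 calls with NaCl and 0 to 2 with sorbitol. With PEG they had 0 to 5 and with ethylene glycol 0 to 1. Why the other settings moved the counts was not tested. Beside the member counts of these settings stands no share over all genes. A count above or below that of the main fit is therefore not read as a change in the members. None of the recomputed differences changed sign. With 2 arrays per group, differences of single genes at 1 dose could not be tested well.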

Other observations

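Probe sets without a gene name could not enter the set, and some behaved alike. Of 8335 unnamed probe sets with a mean log2 value of 3 or more, 85 had a smallest slope at or past that of the last member (1.02%, against 1% of the 10004 named genes). They were picked by these slopes, which are not tested. Probe set 13421994 had slopes of 1.99, 0.99, 0.68 and 0.84 log2 per 100 mM with NaCl, sorbitol, PEG and ethylene glycol, and probe set 13398112 had 0.75, 0.71, 0.71 and 0.63. Both were chosen after their values were seen, and the genes they measure are not known from the annotation used here.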
